A study of Mus musculus with 6 samples.

Results

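The genes described here are 10 members of the MHC class I antigen presentation pathway: the classical heavy chains H2-K1 and H2-D1, the light chain B2m, the peptide transporter genes Tap1 and Tap2, the loading factor Tapbp, the immunoproteasome subunits Psmb8, Psmb9 and Psmb10, and the transactivator Nlrc5. They were chosen by symbol, and all 10 were found among the 55487 genes of the deposited count table and passed the filter on low counts, which left 13140 genes. The study sorted 2 kinds of cell from mouse bone marrow, TpMos and mature Ly6Chi monocytes, grew each into macrophages for 7 days in medium with CSF-1, the growth factor that keeps macrophages alive, and sequenced their RNA. There were 3 libraries of TpMo-derived and 3 of Ly6Chi-derived macrophages, and the comparison asks how the macrophages that the 2 cells give rise to differ. The meaning of TpMo is not spelled out in the labels, which also give no strain, age, genotype or number of animals, and no CSF-1 concentration for any sample. Both groups had the same medium with serum, and no cytokine other than CSF-1 is named for either.

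MHC class I molecules carry peptides from inside the cell to its surface, where CD8+ T cells read them. Proteasomes cut proteins into peptides, the transporter TAP moves the peptides into the endoplasmic reticulum, and tapasin, the product of Tapbp, holds empty class I molecules at TAP until a peptide is bound. In cells exposed to interferon, 3 immunoproteasome subunits take the places of the constitutive catalytic subunits. NLRC5 is known to drive transcription of class I genes, and interferon signalling through STAT and IRF factors is known to raise many genes of the pathway.

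Library totals ran from 23765773 to 33042094 counts, and the lowest count of any of the 10 genes in any library was 524, far above the filter's minimum of 10. The macrophage markers Csf1r, Adgre1, Cd68 and Lyz2 were abundant in both groups, and the summed level of 8 macrophage markers was 34811 to 37360 CPM, the counts of a gene divided by its library's total and scaled, in TpMo-derived and 28723 to 31733 CPM in Ly6Chi-derived libraries. Of 7 markers of dendritic cells, which also present antigen strongly, 4 (Flt3, Ccr7, Clec9a and Cd209a) had no count in any library, and the 7 together reached at most 1.27 CPM. Markers of B cells, of T and NK cells, of neutrophils, of erythroid cells, of mast cells and basophils and of stromal and endothelial cells summed to at most 9.58 CPM in any library. Most of the T and NK cell sum was Cd4, which rose in TpMo-derived macrophages, whereas Cd3e, Cd3d and Cd3g had no count. Of the plasmacytoid dendritic cell markers, Siglech, Klk1 and Ly6d had no count, and Tcf4 made up most of the sum of 44.2 to 74.5 CPM.

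Genes of class I presentation were higher in TpMo-derived macrophages. Of the 10 genes, 8 rose, 0 fell and 2, Tap2 and Nlrc5, did not pass the test (quasi-likelihood test of edgeR, with p adjusted by Benjamini-Hochberg over all 13140 genes and a threshold of 0.05). Among all genes tested, 6.54% rose and 5.79% fell, 12.3% in all. The 10 genes were chosen with earlier results of these data known, so the contrast with these shares is a description only. The 8 increases ran from 1.5-fold for H2-D1 to 2.43-fold for Tap1, and the median log2 fold change of the 10 genes was 0.67, against 0.005 for all genes tested. In the 8 genes that rose, every TpMo-derived library stood above every Ly6Chi-derived library, and for no member did every one stand below. Such separation was found for 15.3% of all genes tested with TpMo-derived macrophages higher and for 15.2% with them lower, 30.5% in all. Because these are bulk samples, more RNA per cell and more cells with the RNA cannot be told apart.

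**Figure D1:**
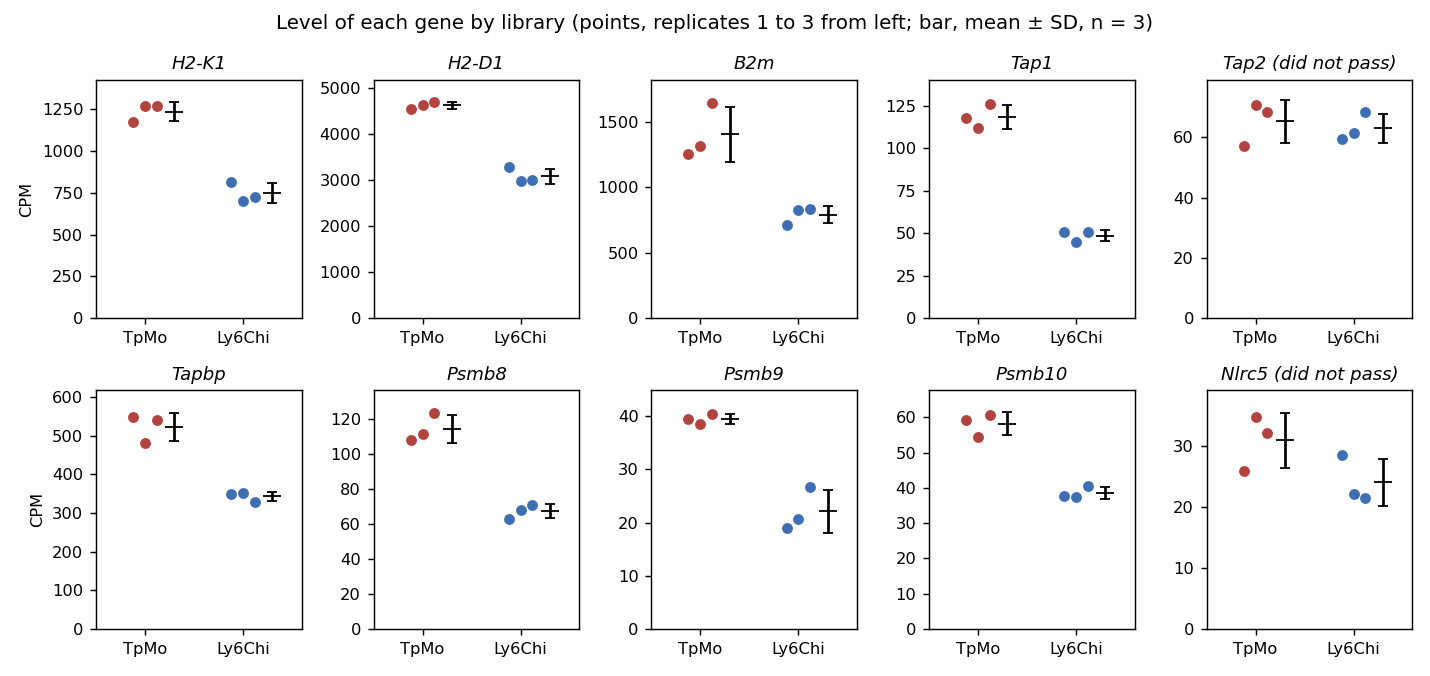
Level of the 10 genes in each library, in CPM scaled to TMM-adjusted library totals, on axes that start at 0. Points are libraries (red, TpMo-derived; blue, Ly6Chi-derived) and bars give the mean ± SD of 3 libraries; the groups are apart for 8 genes and overlap for Tap2 and Nlrc5.

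The heavy chains and their light chain were the most abundant of the 10. H2-K1 (ENSMUSG00000061232.16, chromosome 17, 33996017 to 34000347 on GRCm38, minus strand) stood at 1170.1, 1267 and 1266 CPM in TpMo-derived libraries 1 to 3 and at 815, 703 and 725 CPM in Ly6Chi-derived libraries 1 to 3. The lowest TpMo-derived library thus lay well above the highest Ly6Chi-derived one (log2 fold change 0.72 ± 0.07 SE, adjusted p = 1.12e-04). H2-D1 (ENSMUSG00000073411.11, chromosome 17, 35262730 to 35267499, plus strand) stood at 4550.0, 4637 and 4705 CPM in TpMo-derived libraries and at 3275, 2974 and 3005 CPM in Ly6Chi-derived libraries. Its groups were the tightest of the 3 genes relative to their level (log2 fold change 0.59 ± 0.05 SE, adjusted p = 6.04e-05). B2m, which encodes the β2-microglobulin that every classical heavy chain needs to fold (ENSMUSG00000060802.8, chromosome 2, 122147686 to 122153083, plus strand), stood at 1254, 1320.1 and 1642 CPM in TpMo-derived libraries and at 716, 828 and 833 CPM in Ly6Chi-derived libraries. TpMo-derived library 3 was the highest for B2m, and Ly6Chi-derived library 1 the lowest (log2 fold change 0.83 ± 0.10 SE, adjusted p = 5.75e-04). Reads that map to several places were not counted by the defaults of the counting program, and heavy chain genes share sequence with one another and with the H2-Q and H2-T genes, so the levels of the heavy chains are uncertain.

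Ratios of counts per kilobase within a library compare these 3 genes independently of library scaling. H2-D1 was 4.43, 4.17 and 4.23 times H2-K1 in TpMo-derived libraries and 4.58, 4.82 and 4.72 times H2-K1 in Ly6Chi-derived libraries. The ratio was lower in each TpMo-derived library than in any Ly6Chi-derived one (log2 difference of the means -0.14), and the exact two-sided permutation test gave p = 0.1, the smallest that 3 against 3 libraries allow (0.15 after Benjamini-Hochberg adjustment over the 6 ratios computed). The summed heavy chains were 1.48, 1.45 and 1.18 times B2m in TpMo-derived libraries and 1.86, 1.45 and 1.46 times B2m in Ly6Chi-derived libraries. These values overlapped between the groups (exact permutation p = 0.5, adjusted p = 0.5), so a difference in the ratio of heavy to light chain was not detected.

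For the heavy and light chain genes H2-K1, H2-D1 and B2m, the sequences before the start sites are shown. Psmb10, on chromosome 8, also lies apart from the other genes and rose, and none of the motifs below was found in its window. Promoter windows from RefSeq (GRCm38.p6, 250 bases before to 50 after each start site) were held for 8 of the 10 genes and were searched on both strands for 6 motifs, the last of them CCAAT, found in 6 of the 8 genes and in 37.4% of the windows of all genes. Capitals mark the interferon regulatory factor motif AANNGAAA, the NF-kB motif, GGGA and CC with any 4 bases between them, and the core of the cyclic AMP response element, TGACG. The stretches are, each on the strand of its gene and 5′ to 3′:
B2m, chr2:122147537-122147685, plus strand: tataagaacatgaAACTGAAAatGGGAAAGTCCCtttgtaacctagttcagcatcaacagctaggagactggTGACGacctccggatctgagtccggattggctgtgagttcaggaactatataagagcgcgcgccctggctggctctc
H2-K1, chr17:34000348-34000497, minus strand: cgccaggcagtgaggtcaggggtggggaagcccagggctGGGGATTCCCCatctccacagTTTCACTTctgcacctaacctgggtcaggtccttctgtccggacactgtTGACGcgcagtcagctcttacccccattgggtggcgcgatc
H2-D1, chr17:35262923-35262951, plus strand: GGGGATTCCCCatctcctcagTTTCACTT

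All 3 genes hold the 3 motifs before their start site. All 8 genes with a window rose, but AANNGAAA and the NF-kB motif were each found only in these 3. Tap1, Tapbp, Psmb8, Psmb9 and Psmb10 rose and hold neither in their windows, and TGACG is in 5 of the 8 genes. Whether the motifs bear on the rise was not tested. In B2m the interferon regulatory factor motif comes first, and in both heavy chain genes the NF-kB motif comes first and the interferon regulatory factor motif is on the opposite strand. The 29 bases from the NF-kB to the interferon regulatory factor motif of H2-K1 and H2-D1 are identical at 28, with A18T as the only substitution, counted from 1 at the 5′ end with the H2-K1 base first. From the last base of the latter motif to the first of TGACG the distance is 42 bases in both genes. Each motif is common: AANNGAAA is in 23.9%, the NF-kB motif in 20.7% and TGACG in 20.8% of the 32851 windows of all genes. The longer core of the interferon-stimulated response element, GAAA on either side of any 2 bases, which overlaps AANNGAAA in B2m, is in 3.44% of all windows. Of the 8 genes with a window, B2m alone holds it. Among the type I interferon response genes described further down, 4 of the 8 with a window hold it, and 5 of the 8 hold AANNGAAA. In other lists below, AANNGAAA is in 13 of 16 nonclassical and class I-like genes with a window. It is in 3 of 16 transcription factors of MHC genes and in 1 of 9 receptors and kinases of interferon signalling. A match gives the letters only and not a bound site, and other stretches of these genes were not searched.

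The peptide transporter genes differed from each other. Tap1 (ENSMUSG00000037321.17, chromosome 17, 34187553 to 34197225, plus strand) stood at 118, 112 and 126 CPM in TpMo-derived libraries and at 50.5, 44.9 and 50.5 CPM in Ly6Chi-derived libraries. The lowest TpMo-derived library was far above the highest Ly6Chi-derived one, and the log2 fold change of 1.28 ± 0.10 (SE, adjusted p = 4.37e-05) was the largest of the 10. Tap2, whose product pairs with that of Tap1 to form the channel (ENSMUSG00000024339.12, chromosome 17, 34203527 to 34216321, plus strand), stood at 57.3, 70.6 and 68.3 CPM in TpMo-derived libraries and at 59.3, 61.3 and 68.5 CPM in Ly6Chi-derived libraries. The groups overlapped, and TpMo-derived libraries held both the lowest and the highest value (log2 fold change 0.05 ± 0.12 SE, adjusted p = 0.857). The ratio of Tap1 to Tap2, in counts per kilobase, was 1.42, 1.09 and 1.27 in TpMo-derived libraries and 0.589, 0.506 and 0.509 in Ly6Chi-derived libraries. It was thus 2.35-fold higher in TpMo-derived macrophages, with no overlap (exact two-sided permutation p = 0.1, the smallest possible, and 0.15 adjusted over 6 ratios). Tapbp (ENSMUSG00000024308.15, chromosome 17, 33915899 to 33929292, plus strand) stood at 549, 482 and 540.2 CPM in TpMo-derived libraries and at 349, 351 and 329.8 CPM in Ly6Chi-derived libraries, again with no overlap (log2 fold change 0.61 ± 0.07 SE, adjusted p = 3.46e-04).

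**Figure D2:**
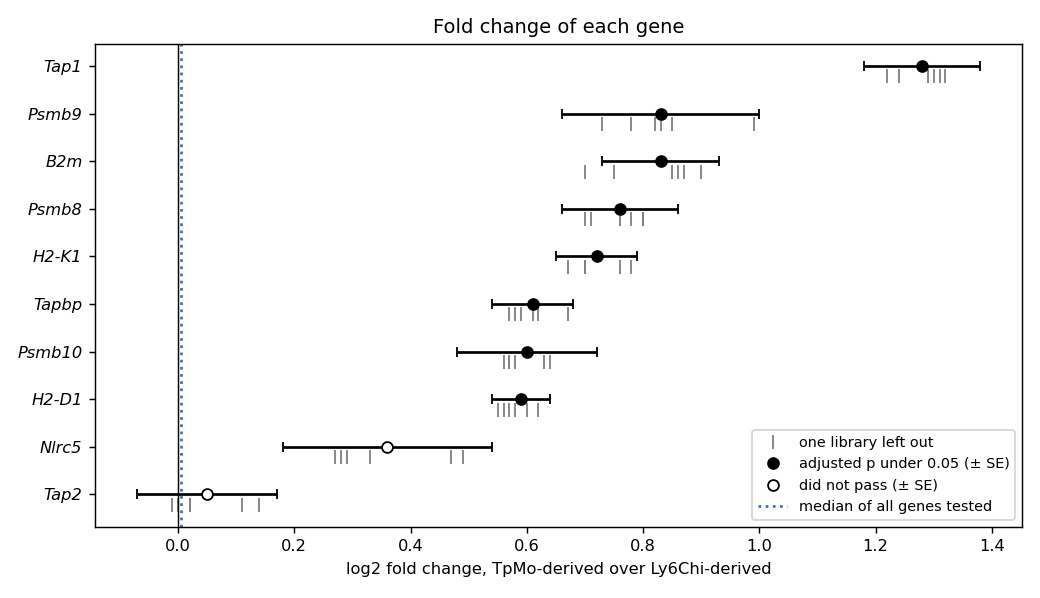
Log2 fold change of each of the 10 genes, TpMo-derived over Ly6Chi-derived, with its SE (filled, adjusted p under 0.05; open, did not pass). Grey ticks give the fold change with 1 library left out, and the dotted line is the median of all genes tested at 0.005; Tap1 lies highest at 1.28 and Tap2 lowest at 0.05.

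All 3 immunoproteasome subunits rose. Psmb8, the chymotrypsin-like subunit also called LMP7 (ENSMUSG00000024338.15, chromosome 17, 34197721 to 34201454, plus strand), stood at 108, 111 and 123 CPM in TpMo-derived libraries and at 62.9, 67.8 and 70.8 CPM in Ly6Chi-derived libraries (log2 fold change 0.76 ± 0.10 SE, adjusted p = 8.81e-04). Psmb9, also called LMP2 (ENSMUSG00000096727.3, chromosome 17, 34181987 to 34187764, minus strand), stood at 39.5, 38.6 and 40.4 CPM in TpMo-derived libraries and at 19, 20.7 and 26.7 CPM in Ly6Chi-derived libraries (log2 fold change 0.83 ± 0.17 SE, adjusted p = 0.00947). Its spread came from the Ly6Chi-derived group, where library 3 was the highest. Psmb10, also called MECL-1 and the subunit of the 3 that lies outside the MHC (ENSMUSG00000031897.9, chromosome 8, 105935735 to 105938444, minus strand), stood at 59.3, 54.4 and 60.6 CPM in TpMo-derived libraries and at 37.6, 37.4 and 40.4 CPM in Ly6Chi-derived libraries (log2 fold change 0.60 ± 0.12 SE, adjusted p = 0.00993). The groups did not overlap for any of the 3. Without Ly6Chi-derived replicate 2 the calls of Psmb9 and Psmb10 were lost (adjusted p = 0.0530 and 0.0516), with log2 fold changes of 0.78 and 0.57.

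The constitutive subunits that these replace did not pass the test. Psmb5, Psmb6 and Psmb7, the counterparts of Psmb8, Psmb9 and Psmb10, had log2 fold changes of -0.05 ± 0.14, -0.17 ± 0.13 and 0.14 ± 0.20 (SE), and their groups overlapped. In counts per kilobase, Psmb8 was 0.361, 0.304 and 0.297 times Psmb5 in TpMo-derived libraries and 0.200, 0.179 and 0.167 times Psmb5 in Ly6Chi-derived libraries, a 1.76-fold higher ratio with no overlap. Psmb9 was 0.125, 0.110 and 0.106 times Psmb6 in TpMo-derived and 0.0591, 0.0549 and 0.0560 times Psmb6 in Ly6Chi-derived libraries, a 2.00-fold higher ratio with no overlap. Both had the smallest possible exact permutation p of 0.1 (0.15 adjusted over 6 ratios). For Psmb10 and Psmb7 the ratios were 4.35, 3.65 and 4.01 in TpMo-derived and 3.89, 2.34 and 2.87 in Ly6Chi-derived libraries, which overlapped (exact permutation p = 0.2, adjusted p = 0.24). The overlap came from Ly6Chi-derived library 1, in which Psmb7 was lowest, at 19.4 CPM. The change of a ratio between groups does not depend on gene length, but the ratio itself does, since the merged exons of the table are longer than the main transcript for several of these genes.

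**Figure D3:**
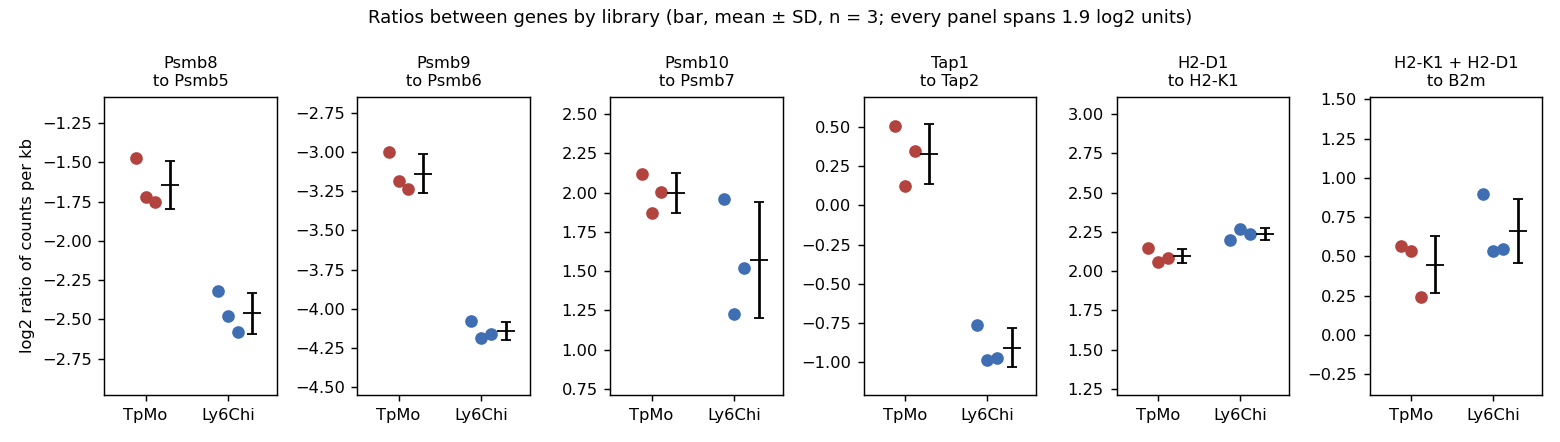
Log2 ratio of counts per kilobase between pairs of genes in each library (red, TpMo-derived; blue, Ly6Chi-derived; bars, mean ± SD of 3 libraries), with every panel spanning 1.9 log2 units. The groups are apart for Psmb8 to Psmb5, Psmb9 to Psmb6, Tap1 to Tap2 and, by a small margin, H2-D1 to H2-K1, and overlap in the other 2 panels.

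Of the 10 genes, 7 lie on chromosome 17. Psmb9, Tap1, Psmb8 and Tap2 follow one another there within 34335 bases (34181987 to 34216321), and the first 3 of them rose while Tap2 did not pass. Psmb9 and Tap1 are transcribed away from each other, and their exons share 212 bases in the table, where reads on both were not counted. The motif TGACG lies between their RefSeq start sites and is shown in capitals on the Tap1 strand, with the gamma-activated site motif TTCNNNGAA (in 8.30% of all windows), which among the 8 genes was found only in the Psmb8 window:
Tap1 and Psmb9, chr17:34187458-34187487, plus strand: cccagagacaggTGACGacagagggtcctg
Psmb8, chr17:34198088-34198116, plus strand: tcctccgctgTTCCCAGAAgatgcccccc

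Because strand was not used in the counting, reads on exon bases shared with a gene on either strand were left out. The levels of genes with such bases are lowered to an extent that was not measured. Exon bases shared with another gene made up 18.5% of the exons of Tap2, 14.7% of Psmb8 and 29.0% of Tapbp, 5.79% or less for Psmb9, Tap1 and Nlrc5, and 0% for H2-K1, H2-D1, B2m and Psmb10.

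Nlrc5, the transactivator, had the lowest level of the 10 per kilobase of exon. Nlrc5 (ENSMUSG00000074151.13, chromosome 8, 94434356 to 94527272, plus strand) stood at 25.8, 34.6 and 32.1 CPM in TpMo-derived libraries and at 28.4, 22.1 and 21.5 CPM in Ly6Chi-derived libraries. TpMo-derived library 1 lay below Ly6Chi-derived library 1, and the log2 fold change of 0.36 ± 0.18 (SE) did not pass (adjusted p = 0.270, unadjusted p = 0.0778). Ciita, the related transactivator of MHC class II genes, had 0 counts in every library but Ly6Chi-derived library 3, which held 4.

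In CPM per kilobase of merged exon (RPKM), the order of levels in TpMo-derived macrophages was H2-D1 (1795 ± 30.1 SD), B2m (1634 ± 242), H2-K1 (420 ± 18.9), Tapbp (144 ± 10), Psmb10 (34.1 ± 1.94), Psmb8 (33.7 ± 2.47), Tap1 (21.6 ± 1.29), Tap2 (17.3 ± 1.88), Psmb9 (10.8 ± 0.250) and Nlrc5 (3.63 ± 0.532). H2-D1 and B2m did not differ beyond their spread in that group, and neither did Psmb10 and Psmb8. In Ly6Chi-derived macrophages H2-D1 (1196 ± 64.3 RPKM) stood above B2m (922 ± 77.0 RPKM), and Tap2 (16.7 ± 1.28 RPKM) stood above Tap1 (8.88 ± 0.593 RPKM). Tap1 and Tap2 were thus in opposite order in the 2 groups. With the length of the principal coding transcript in place of the merged exons, the levels of H2-K1, Tap1, Psmb8 and Psmb9 in TpMo-derived macrophages were over 1.5 times as high, at 762, 40.1, 70.0 and 29.2 RPKM, and the order changed. Psmb8 then stood above Psmb10 (44.3 RPKM), Psmb9 above Tap2 (19 RPKM), and H2-D1 above B2m by more than their spread (2203 against 1634 RPKM). The mean of Tap1 in Ly6Chi-derived macrophages was still below that of Tap2 (16.5 against 18.3 RPKM), but the 2 did not differ beyond their spread. Of these 2 lengths, the opposite order of Tap1 and Tap2 in the 2 groups thus holds beyond the spread only with the merged exons. The merged length includes bases shared with other genes, 18.5% for Tap2 and 3.87% for Tap1, on which reads were left out. This lowers the level of Tap2 by more bases than that of Tap1, so their order within a group is uncertain. Averaged over the 6 libraries, H2-D1 ranked 18 and B2m 21 of 13140 genes by RPKM, whereas Nlrc5 ranked 7157.

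The remaining genes of the pathway were taken from lists of the proteasome, of peptide loading and of class I-like molecules. Their counts stand beside the 6.54% of all genes tested that rose and the 5.79% that fell. Of 11 other subunits of the 20S core, 2 rose and 0 fell, with a median log2 fold change of 0.12. Those were Psma5 (log2 fold change 0.43) and Psma6 (0.41), and each call was lost when any of 4 single libraries was left out (adjusted p from 0.0591 to 0.0991 for Psma5 and from 0.0853 to 0.117 for Psma6). Of 18 subunits of the 19S regulatory particle, which feeds proteins into the core, 1 rose and 1 fell, with a median of 0.11. That is near the 12.3% called in either direction among all genes tested. Psmd8 fell to 269.5 ± 17.7 CPM from 355 ± 19.2 CPM (SD, n = 3, log2 fold change -0.40, adjusted p = 0.00642), and Psmd1 rose by 0.31 on the log2 scale, a call that was lost when any of 4 single libraries was left out (adjusted p from 0.0894 to 0.117). Of 9 genes of proteasome activators and assembly factors, 2 rose, both of them subunits of the interferon-inducible activator PA28. Psme1 stood at 76.8, 72.4 and 81.0 CPM in TpMo-derived libraries and at 43.6, 48.2 and 55.9 CPM in Ly6Chi-derived libraries (log2 fold change 0.64 ± 0.12 SE, adjusted p = 0.00806). Psme2 was 0.57 ± 0.15 (SE) higher (adjusted p = 0.0320), a call that was lost when any of 5 single libraries was left out (adjusted p from 0.0526 to 0.135). Pomp, which helps to assemble immunoproteasomes, did not pass (log2 fold change 0.16 ± 0.14 SE).

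Of 8 genes for peptide loading and trimming in the endoplasmic reticulum, 3 rose and 0 fell, with a median of 0.12. The chaperone Hspa5 rose to 2348 ± 17.6 CPM from 1603 ± 78.8 CPM (SD, n = 3, adjusted p = 9.69e-05). The loading-complex oxidoreductase Pdia3 and the lectin chaperone Canx rose by 0.22 and 0.19 on the log2 scale. The call of Pdia3 was lost when any of 3 single libraries was left out (adjusted p up to 0.0772), and that of Canx under 7 alternatives (adjusted p up to 0.112). Calr and the peptide-trimming protease Erap1 did not pass (log2 fold changes 0.08 ± 0.08 and 0.01 ± 0.11 SE), and neither did the tapasin relative Tapbpl (-0.23 ± 0.17 SE).

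Nonclassical and class I-like genes went both ways. Of 24 listed, 19 could be tested, of which 7 rose, 3 fell and 9 missed the threshold (median log2 fold change 0.49); 4 were too low to test, and H2-L had no row. H2-T23, which encodes Qa-1, a ligand of NKG2 receptors on NK cells (chromosome 17, 36029773 to 36032855), stood at 313, 355 and 382 CPM in TpMo-derived libraries and at 182, 178 and 155 CPM in Ly6Chi-derived libraries (log2 fold change 1.03 ± 0.09 SE, adjusted p = 9.34e-05). H2-T24 stood at 44.2, 37.9 and 55.5 CPM in TpMo-derived libraries against 8.97, 9.33 and 6.25 CPM (log2 fold change 2.49 ± 0.22 SE, adjusted p = 8.40e-05). Both were separate between the groups, and H2-T24 had a larger fold change than any of the 10 genes. H2-Q5, H2-Q6 and H2-Q7 also rose, with log2 fold changes of 2.90, 2.31 and 2.34, from means of 1.69 CPM or less in Ly6Chi-derived macrophages. Their calls were lost without some single libraries, among them TpMo-derived replicate 3 (adjusted p = 0.0679, 0.0617 and 0.0711), and reads of these near-identical genes are uncertain. Cd1d1, which presents lipids to NKT cells, fell to 10.0 ± 3.34 CPM from 25.5 ± 3.01 CPM (SD, n = 3, log2 fold change -1.35 ± 0.26 SE, adjusted p = 0.00793). The other calls, named after their values were seen, were H2-T22 (log2 fold change 0.75) and Fcgrt (0.49), which rose, and Procr (-1.26) and Mr1 (-0.60), which fell. All 4 of these calls were lost without TpMo-derived replicate 3 (adjusted p = 0.0921, 0.0681, 0.0991 and 0.0661), and each was also lost without some other single libraries (adjusted p up to 0.136). H2-M3, which presents formylated peptides, had means of 67.3 ± 8.06 and 49.9 ± 6.23 CPM (SD, n = 3), which did not overlap but missed the threshold of the test (adjusted p = 0.0763). It passed with DESeq2 (adjusted p = 0.0275) and when only genes reaching 5 CPM in 3 libraries were tested (adjusted p = 0.0492).

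**Figure D4:**
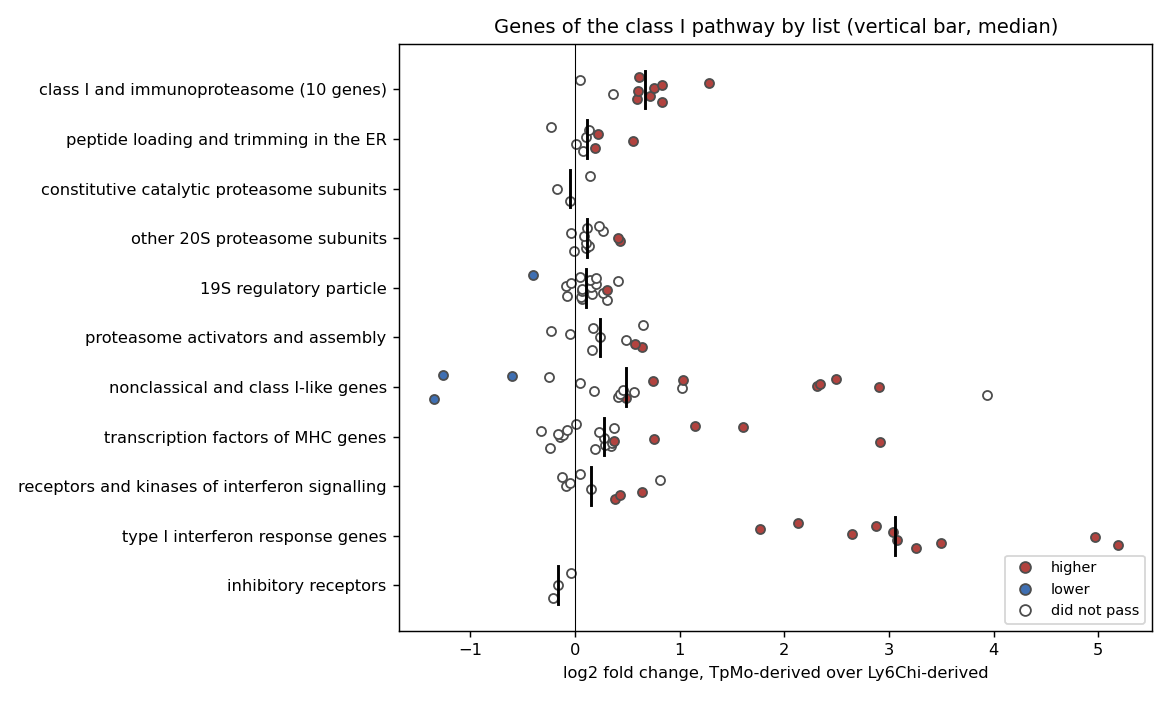
Log2 fold change, TpMo-derived over Ly6Chi-derived, of every tested gene in the 10 genes and in each list of the pathway (red, higher; blue, lower; open, did not pass; vertical bar, median of the list). The 10 genes have a median of 0.67, the constitutive catalytic subunits one of -0.05 and the type I interferon response genes one of 3.06.

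Among 20 transcription factors known to act on MHC genes, 5 rose, 0 fell and 14 missed the threshold (median log2 fold change 0.28), while Ciita was too low to test. These counts, and those of the interferon and receptor lists below, stand beside the 6.54% of all genes tested that rose and the 5.79% that fell. Irf7 stood at 274, 199 and 281 CPM in TpMo-derived libraries and at 39, 39.6 and 21.9 CPM in Ly6Chi-derived libraries (log2 fold change 2.91 ± 0.22 SE, adjusted p = 3.38e-05). Stat2 and Irf9, which act together in type I interferon signalling, rose by 1.15 and 0.76 on the log2 scale, and the myeloid factor Irf8 by 0.37. Irf1, which is known to act on Tap1 and Psmb9, did not pass (0.34 ± 0.20 SE, adjusted p = 0.367). The subunits of the enhanceosome that NLRC5 joins, Rfx5, Rfxap, Rfxank, Nfya, Nfyb and Nfyc, also missed the threshold and had log2 fold changes between -0.32 and 0.37. The ends of that range, Rfx5 (SE 0.68) and Rfxap (SE 0.59), had group means of 2.48 CPM or less, so a moderate change in them could have been missed.

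Of 9 receptors, kinases and feedback regulators of interferon signalling, 3 rose and 0 fell. Ifngr1 rose to 346 ± 28.4 CPM from 222 ± 12.3 CPM and Ifnar1 to 321 ± 13.4 CPM from 247 ± 6.61 CPM (SD, n = 3, adjusted p = 6.19e-04 and 0.00460). Ifnar2 was 0.43 higher on the log2 scale (adjusted p = 0.0441), a call that was lost under 7 alternatives, with each single library left out and with library sizes alone. Jak1, Jak2 and Tyk2 did not pass (log2 fold changes -0.09, -0.05 and 0.05). Of 10 type I interferon response genes, 10 rose, with log2 fold changes from 1.77 to 5.19. Their median of 3.06 was above that of the class I genes. The list was chosen with such increases known, and the difference between the lists was not tested. With no count filter 9 rose, and 9 also without TpMo-derived replicate 3. The largest fold change, that of Ifi44 (SE 0.70), rested on Ly6Chi-derived counts of 0, 26 and 60. Ifit3 had the smallest p of the list and stood at 236, 182 and 269 CPM in TpMo-derived libraries and at 8.57, 7.14 and 6.22 CPM in Ly6Chi-derived libraries (log2 fold change 4.97 ± 0.18 SE, adjusted p = 6.46e-07). Of 3 inhibitory receptors tested, 0 passed. Pirb, which binds class I molecules, and its relative Lilrb4a had log2 fold changes of -0.04 ± 0.07 and -0.16 ± 0.07 (SE).

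The genes whose profile over the 6 libraries came closest to the median profile of the 10, by the root mean square difference of centred log2 CPM among 9226 genes at a mean of at least 5 CPM, were Pdia6 (0.033), Slc37a2 (0.034), Impdh2 (0.035), Tars (0.035), Pid1 (0.043) and Clic4 (0.047). The class I genes themselves lay between 0.051 for H2-D1 and 0.322 for Tap2. That the named genes lay closer follows largely from picking the closest of 9226. Pdia6, a protein disulfide isomerase of the endoplasmic reticulum, stood at 503, 512 and 535 CPM in TpMo-derived libraries and at 349, 330 and 342 CPM in Ly6Chi-derived libraries. Genes of such a profile are a description over 6 libraries in 2 groups.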

How the data were processed

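For 6 libraries the authors deposited unnormalized counts of reads on genes. They were made with featureCounts 1.6.3 and GENCODE M22, per the file headers, whose command sets nothing for pairs, strand or multi-mapped reads. By that program's defaults both mates were counted separately, strand was ignored, and reads on several places or genes were left out. STAR and GRCm38 come from the submitters' processing notes. Symbols came from GENCODE M21 (55394 identifiers matched, 93 did not). Gene lengths are the merged exons of the deposited table.

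Genes passed filterByExpr (minimum count 10, minimum total 15) in edgeR 4.0.16 (R 4.3.3), were scaled by TMM and tested by the robust quasi-likelihood test with no covariate; an adjusted p under 0.05 counted as changed, and the fold change is TpMo-derived over Ly6Chi-derived. SE is the fold change divided by the square root of its F. CPM values use TMM-adjusted totals. Ratios were tested by exact permutation. Likeness used log2(CPM + 0.1). Replicates were numbered in accession order; since no label ties them to separate animals or cultures, the p-values reflect the spread among libraries, and that spread may be technical. Within groups, pairs of libraries differed by a chi-square of 22.1 to 36.5 per degree of freedom, so none is a copy.

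All 10 genes are described, and the rule for each list allowed up to 6 changed genes by smallest p and the 2 most abundant, some of which are given only in counts and ranges; other list genes were named by role after their values were seen. The members and lists were chosen with earlier results of these data known, and the motif AANNGAAA after the search for the longer interferon-stimulated response element core was seen. Alternatives were other scalings, filters and tools (DESeq2 1.42.0, limma-voom 3.58.1) and leaving out each library. The values of 1 gene among the transcription factors are not reported here.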

Additional observations from a re-analysis of the deposited data

How the results depend on the processing

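The 10 genes were recomputed under 12 alternatives each, 120 values in all, of which 118 kept their side of the threshold; the exceptions were Psmb9 and Psmb10 without Ly6Chi-derived replicate 2. The sign turned for 1 value, that of Tap2 without TpMo-derived replicate 2 (-0.01), where it was not past the threshold in either fit. The log2 fold change of Tap1 ranged from 1.22 to 1.32, that of Tap2 from -0.01 to 0.14 (adjusted p from 0.608 to 0.995) and that of Nlrc5 from 0.27 to 0.49 (adjusted p from 0.186 to 0.533). Library sizes alone moved the median of all genes by -0.049. With 1 library left out the number of changed genes was 976 to 1492 against 1620, and 6 to 8 of the 10 genes rose. DESeq2 called 1165 genes lower against 761. Of 240 recomputed list counts, 28 moved by over 1.5 times: with a library left out, higher counts fell from 3 to 1 for peptide loading, from 2 to 0 for the 20S core, from 2 to 1 for activators and from 7 to 2 for class I-like genes, whose lower count fell from 3 to 1, and the count for the 19S particle, 1, ranged from 0 to 4 with DESeq2. The 6 ratios kept their direction in every recomputation. The level per length with the principal transcript was added after the lengths were seen. No paired analysis was possible because the labels give no replicate numbers, animals or batches that pair libraries across the groups.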
